A study of Homo sapiens with 6 samples.

Results

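The serine synthesis and one-carbon enzymes were taken as 10 genes fixed by name: PHGDH, PSAT1, PSPH, SHMT1, SHMT2, MTHFD1, MTHFD2, MTHFD1L, MTHFD2L and ALDH1L2. Each name matched 1 gene in the count tables, 10 of 44591 genes in all, and the rule rests on names rather than on a measured value. The RNA came from A2780, an established human ovarian cancer (OvCA) cell line of wild-type genotype, grown in DMEM with fetal bovine serum, a medium that contains serine and glycine. One group of 3 libraries was untreated. The other group of 3 libraries came from cells given human recombinant CRMP2 (r-CRMP2) at 40 ng/ml in the medium, and both groups are labelled 48 h. CRMP2 is a protein that the study found in the medium of cancer-associated fibroblasts, and the comparison asks which transcripts of OvCA cells differ after the protein is added. A single cell line and a single dose were sequenced. The labels call the libraries replicates without saying that they were separate cultures, so the p-values measure the spread between these libraries, which may be technical.

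PHGDH, PSAT1 and PSPH act in sequence to make serine from the glycolytic intermediate 3-phosphoglycerate. The serine hydroxymethyltransferases SHMT1 (cytosol) and SHMT2 (mitochondria) then convert serine to glycine and pass a carbon unit to tetrahydrofolate. In mitochondria MTHFD2 or MTHFD2L oxidises that unit, MTHFD1L releases it as formate, and ALDH1L2 can instead oxidise it to CO2 with formation of NADPH. In the cytosol MTHFD1 takes up the formate for purine and thymidylate synthesis. Tumour cells are known for high levels of several of these enzymes, above all PHGDH, SHMT2 and MTHFD2, and the transcription factor ATF4 is known to induce many of them during amino acid shortage or stress.

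After r-CRMP2, 4 of the 5 mitochondrial folate enzymes were higher, and 2 of the 3 serine synthesis enzymes and 1 of the 2 cytosolic enzymes were lower. SHMT2, MTHFD2 and MTHFD1L were upregulated by 1.52-fold to 1.72-fold, and the low-level MTHFD2L by 1.41-fold. For MTHFD2L the groups overlapped, and the call held in only 7 of 12 alternative analyses. PSAT1, PSPH and cytosolic SHMT1 were lower, at 0.770, 0.535 and 0.837 of the untreated level. PHGDH, MTHFD1 and ALDH1L2 did not pass the threshold, an adjusted p below 0.05 in edgeR's quasi-likelihood test over all 16222 genes tested. All 10 genes passed the filter on low counts, with 4 higher and 3 lower. Of all genes tested, 28.2% were higher and 30.1% lower under the same threshold, so neither count sets these 10 genes apart from the rest. None of the 10 also passed the study's second threshold, a log2 fold change of more than 1 in size, which 5.12% of all genes passed upward and 8.86% downward. The groups did not overlap for 7 of the 10 genes, with 4 entirely above and 3 entirely below the untreated libraries, against 64.2% of all genes in either direction. The median log2 fold change was 0.11 for the 10 genes and -0.03 for all genes tested.

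The promoters of a pair of genes that rose, MTHFD1L and MTHFD2, and of a pair that fell, PSAT1 and SHMT1, are shown because the groups moved in opposite directions. Each is the 250 bases before the RefSeq start site on the gene's own strand (GRCh38.p14), 5′ to 3′. RefSeq windows were matched for 7 of the 10 genes, and not for PSPH, SHMT2 and ALDH1L2. Capitals mark matches on either strand to 3 kinds of motif. These are TGATGNAA, the C/EBP-ATF response element through which ATF4 is known to act, ACGTG or GCGTG, the core letters of the hypoxia response element bound by HIF-1, and CACGTG, the E-box, which always contains ACGTG on both strands. The windows lie at chr6:150866236-150866485, plus strand, chr2:74198365-74198614, plus strand, chr9:78296875-78297124, plus strand and chr17:18363551-18363800, minus strand. MTHFD1L has 4 listed windows and MTHFD2L has 2, and the first of each was used.
MTHFD1L: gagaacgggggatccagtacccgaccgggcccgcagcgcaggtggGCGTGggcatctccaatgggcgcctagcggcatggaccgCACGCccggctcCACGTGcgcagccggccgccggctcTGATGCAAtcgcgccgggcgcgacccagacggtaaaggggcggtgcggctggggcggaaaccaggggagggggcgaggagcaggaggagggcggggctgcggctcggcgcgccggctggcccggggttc
MTHFD2: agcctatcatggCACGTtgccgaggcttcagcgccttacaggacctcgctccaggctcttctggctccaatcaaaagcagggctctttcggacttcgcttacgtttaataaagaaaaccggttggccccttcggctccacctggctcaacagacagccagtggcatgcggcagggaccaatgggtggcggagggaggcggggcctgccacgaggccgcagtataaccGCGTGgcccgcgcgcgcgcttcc
PSAT1: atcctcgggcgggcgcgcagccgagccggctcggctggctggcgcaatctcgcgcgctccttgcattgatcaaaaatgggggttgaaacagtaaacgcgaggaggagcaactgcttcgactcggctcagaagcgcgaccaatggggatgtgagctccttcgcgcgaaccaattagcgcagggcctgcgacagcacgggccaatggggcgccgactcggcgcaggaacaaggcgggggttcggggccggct
SHMT1: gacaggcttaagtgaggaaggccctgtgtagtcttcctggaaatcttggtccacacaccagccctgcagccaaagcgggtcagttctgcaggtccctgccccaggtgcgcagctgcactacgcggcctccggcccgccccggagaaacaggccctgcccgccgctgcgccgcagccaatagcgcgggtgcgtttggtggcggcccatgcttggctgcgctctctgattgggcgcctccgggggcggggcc
MTHFD1L held the match TGATGCAA, starting 129 bases before the start site, and CACGTG starting 154 bases before it. MTHFD2 held the hypoxia core letters at 238 and 23 bases before its start site. PSAT1 and SHMT1 held none of these motifs in the window, and neither did PHGDH. Of the 7 windows, TGATGNAA was in 1, CACGTG in 2 (MTHFD1L and MTHFD1), and ACGTG or GCGTG in 4 (MTHFD1, MTHFD2, MTHFD1L and MTHFD2L). Among all 35116 RefSeq windows of this length, 3.14% held TGATGNAA, 6.34% held CACGTG and 43.2% held ACGTG or GCGTG. A match of letters is a description and does not show that a factor binds there.

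Levels below are normalised CPM, counts scaled to a common library total with TMM factors, from libraries of 21888530 to 25711353 counts. The 10 genes together took 0.138% to 0.156% of the counts in a library. The r-CRMP2 replicate 3 library stood apart in 1 respect: it had a count for 22438 genes, against 25152 to 26302 in the other 5. The total of this library, 25711353 counts, was the largest. Without this library, 3 of the 10 genes were higher and 3 lower, since MTHFD2L no longer passed. Of the 16693 genes then tested, 4257 were higher and 4351 lower. In bulk RNA, a smaller share of cells that express a gene and less RNA per cell cannot be told apart.

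**Figure D1:**
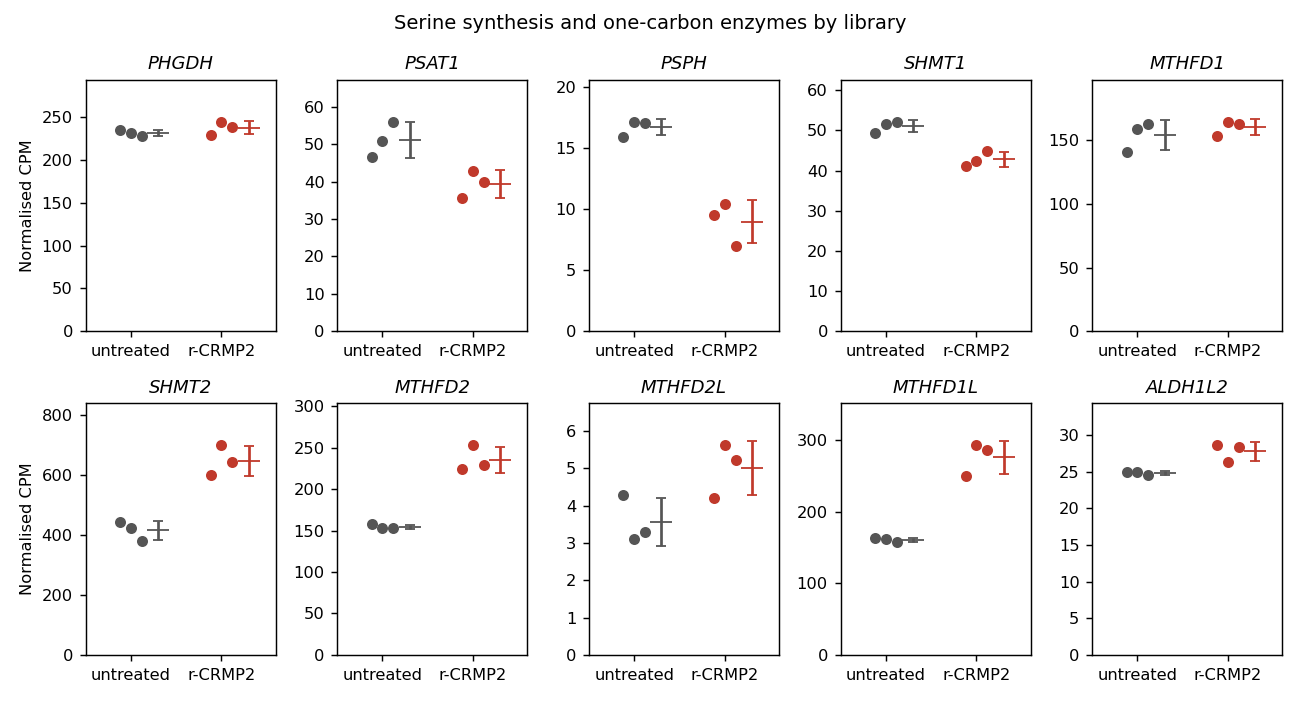
Normalised CPM of the 10 genes in each library (y axes from 0, a scale of its own per gene), with untreated libraries in grey, r-CRMP2 libraries in red, and bars for the mean ± SD of 3 libraries. The red points of SHMT2, MTHFD2, MTHFD1L and ALDH1L2 lie above all grey points, those of PSAT1, PSPH and SHMT1 lie below them, and PHGDH, MTHFD1 and MTHFD2L overlap.

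In the serine synthesis arm, the first enzyme did not pass the threshold, while both later enzymes were lower. PHGDH (hg19 chr1:120254419-120286849, plus strand), the dehydrogenase that opens the pathway, measured 234, 231 and 227 CPM in untreated cells and 229, 245 and 238 CPM after r-CRMP2. The ranges overlapped, and the log2 fold change was 0.04 ± 0.03 (SE, n = 3 per group, edgeR adjusted p = 0.588). PHGDH was the most abundant transcript of the arm in both groups.

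PSAT1 (hg19 chr9:80911991-80945009, plus strand), the aminotransferase of the second step, measured 46.6, 51.0 and 56.1 CPM untreated and 35.5, 42.9 and 39.9 CPM with r-CRMP2. All r-CRMP2 libraries lay below all untreated libraries. The log2 fold change was -0.38 ± 0.11 (SE, n = 3 per group, edgeR adjusted p = 7.35e-04), a level 23.0% lower by the fit. PSPH (hg19 chr7:56078744-56119268, minus strand), the phosphatase that releases free serine, measured 16.0, 17.2 and 17.1 CPM untreated and 9.55, 10.4 and 7.01 CPM with r-CRMP2. The log2 fold change of PSPH was -0.90 ± 0.17 (SE, n = 3 per group, edgeR adjusted p = 4.71e-06), the largest in size of the 10 genes over all libraries. The lowest PSPH value came from the r-CRMP2 replicate 3 library, and without that library the log2 fold change was -0.74 (adjusted p = 5.10e-05), smaller in size than that of MTHFD1L (0.76). PSPHP1, a pseudogene that shares a stretch of 150 bases with PSPH at 97.3% identity, had 185 to 277 counts in untreated and 218 to 260 counts in r-CRMP2 libraries, against 422 to 467 and 161 to 206 for PSPH. PSPHP1 was higher (log2 fold change 0.32, edgeR adjusted p = 0.0465), but at 0.0091 (adjusted p = 0.955) scaled by library size alone. How reads that fit both PSPH and PSPHP1 were assigned is not given in the sources used here, so the PSPH counts are uncertain to that extent.

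In the mitochondrial arm, SHMT2, MTHFD2 and MTHFD1L, which lead from serine to formate, were higher. SHMT2 (hg19 chr12:57623356-57628718, plus strand), which starts the arm, measured 443, 421 and 380 CPM untreated and 598, 698 and 642 CPM with r-CRMP2. Each r-CRMP2 library exceeded each untreated library. The log2 fold change was 0.64 ± 0.09 (SE, n = 3 per group, edgeR adjusted p = 3.40e-07), or 55.7% more.

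MTHFD2 (hg19 chr2:74425690-74442425, plus strand), the dehydrogenase and cyclohydrolase of the next step, measured 158, 153 and 153 CPM untreated and 224, 253 and 229 CPM with r-CRMP2. Its untreated libraries differed little, with an SD of 2.60 CPM, and all lay below the r-CRMP2 libraries. The log2 fold change was 0.61 ± 0.06 (SE, n = 3 per group, edgeR adjusted p = 1.36e-07). MTHFD1L (hg19 chr6:151186815-151423023, plus strand), the synthetase that releases formate, measured 163, 162 and 157 CPM untreated and 250.1, 293 and 286 CPM with r-CRMP2. It had the largest rise of the 10 genes, 71.7%, with a log2 fold change of 0.78 ± 0.07 (SE, n = 3 per group, edgeR adjusted p = 9.66e-09). Its promoter window above, the first of 4 listed, held the C/EBP-ATF letters, as did 3.14% of all RefSeq windows. The windows of the other 6 genes searched, MTHFD2 among them, did not hold these letters, and SHMT2 had no window. The part of the letters in the rise was not tested.

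MTHFD2L (hg19 chr4:75023825-75168816, plus strand), which catalyses the same step as MTHFD2, was present at only 76 to 120 counts a library. It measured 4.28, 3.10 and 3.29 CPM untreated and 4.21, 5.61 and 5.22 CPM with r-CRMP2. The groups overlapped, since untreated replicate 1 was above r-CRMP2 replicate 1. The log2 fold change was 0.49 ± 0.19 (SE, n = 3 per group, edgeR adjusted p = 0.0242), and the call did not hold without untreated replicate 2 (0.40, adjusted p = 0.102), untreated replicate 3 (0.44, 0.0813), r-CRMP2 replicate 2 (0.42, 0.0772) or r-CRMP2 replicate 3 (0.46, 0.0694). ALDH1L2 (hg19 chr12:105413562-105478341, minus strand), the enzyme that yields NADPH, measured 25.02, 25.02 and 24.5 CPM untreated and 28.6, 26.3 and 28.4 CPM with r-CRMP2. Its r-CRMP2 libraries lay above all untreated libraries, but the log2 fold change of 0.16 ± 0.04 (SE, n = 3 per group) did not pass (edgeR adjusted p = 0.0844). Without r-CRMP2 replicate 2 it passed, at 0.21 (adjusted p = 0.0306).

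In the cytosol, the partner of SHMT2 moved the other way. SHMT1 (hg19 chr17:18231174-18266877, minus strand) measured 49.4, 51.6 and 52.2 CPM untreated and 41.2, 42.3 and 44.8 CPM with r-CRMP2. The groups were separate, with a log2 fold change of -0.26 ± 0.04 (SE, n = 3 per group, edgeR adjusted p = 0.00359), or 16.3% less. MTHFD1 (hg19 chr14:64854759-64926725, plus strand), the trifunctional enzyme that uses formate, measured 141, 159 and 163 CPM untreated and 153, 164 and 163 CPM with r-CRMP2. The groups overlapped, and the log2 fold change was 0.06 ± 0.07 (SE, n = 3 per group, edgeR adjusted p = 0.490).

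**Figure D2:**
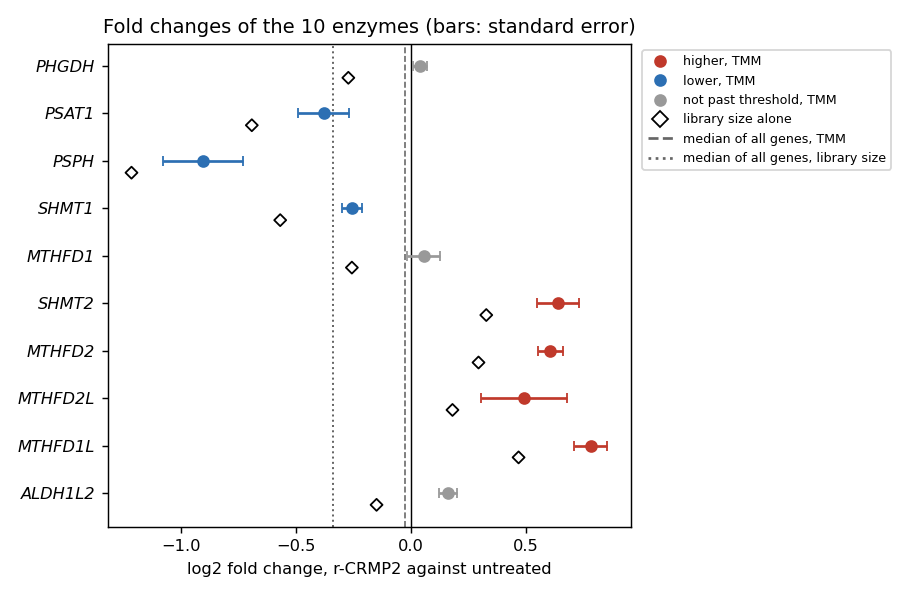
Log2 fold change of each gene, r-CRMP2 against untreated (x axis), with filled points and SE bars after TMM scaling and open diamonds after scaling by library size alone. The dashed and dotted lines mark the medians of all genes, -0.03 and -0.34, and PHGDH, MTHFD1 and ALDH1L2 change sign between the 2 scalings.

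The direction of the smaller changes depends on the scaling between libraries. Scaled by library size alone, the median of all genes tested was -0.34. PHGDH was then at -0.27 (adjusted p = 2.55e-04), MTHFD1 at -0.26 (adjusted p = 0.00268) and ALDH1L2 at -0.15 (adjusted p = 0.121). Relative to that median these genes were at 0.07, 0.08 and 0.19. SHMT2, MTHFD2 and MTHFD1L remained higher at 0.33, 0.29 and 0.47, PSAT1, PSPH and SHMT1 remained lower, and MTHFD2L no longer passed (0.18, adjusted p = 0.376). The counts were then 3 higher and 5 lower.

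Ratios between enzymes of the same library do not depend on scaling. They come from the same counts as the fold changes, so they restate the contrast and are not separate results. Per length, SHMT2 exceeded SHMT1 by 7.997, 7.27 and 6.50 times in untreated libraries and by 12.9, 14.7 and 12.8 times in r-CRMP2 libraries. The log2 ratio was higher by 0.90 ± 0.11 (SE, n = 3 per group). MTHFD1L to MTHFD1 went from 1.08, 0.960 and 0.908 to 1.53, 1.67 and 1.65, a log2 difference of 0.72 ± 0.08 (SE). The transcript of the formate-releasing enzyme was thus close to that of the formate-using enzyme in untreated cells and above it in each r-CRMP2 library.

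PSAT1 to PHGDH was 0.177, 0.197 and 0.220 untreated and 0.138, 0.157 and 0.150 with r-CRMP2, a log2 difference of -0.42 ± 0.10 (SE). PSPH to PHGDH was 0.0648, 0.0708 and 0.0714 untreated and 0.0396, 0.0405 and 0.0280 with r-CRMP2, a log2 difference of -0.96 ± 0.18 (SE). The groups did not overlap for any of these 4 ratios. For each, the two-sided exact permutation test gave p = 0.1, the smallest it can give for 3 against 3 libraries (adjusted p = 0.125 over 5 ratios), so it cannot pass 0.05 in this design. The fifth ratio, MTHFD2 to MTHFD2L, was 38.7, 51.9 and 48.8 untreated and 55.8, 47.3 and 46.0 with r-CRMP2, and the groups overlapped (exact permutation p = 0.6).

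**Figure D3:**
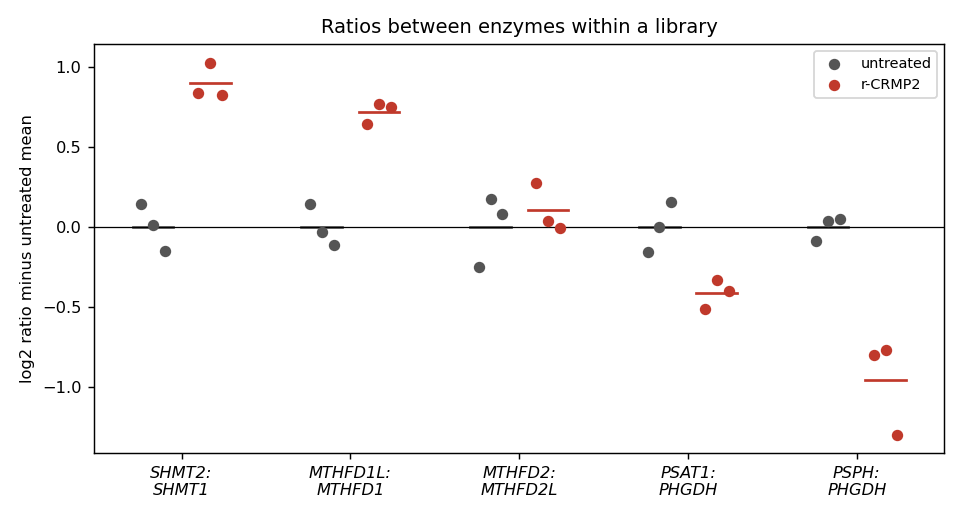
Log2 ratio of 2 enzymes per length in each library, minus the untreated mean of that ratio (y axis), for 5 ratios, with points for libraries and bars for group means of 3. SHMT2 to SHMT1 and MTHFD1L to MTHFD1 lie higher with r-CRMP2, by 0.90 and 0.72, the 2 ratios to PHGDH lie lower, and MTHFD2 to MTHFD2L overlaps.

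Levels of different genes were compared as TPM, the deposited values corrected for gene length and library total, and this scale was used here for order within a group, not for differences between groups. In untreated cells the order was SHMT2 (353 ± 24.7 TPM, SD, n = 3), PHGDH (279 ± 3.56), MTHFD2 (165 ± 0.933), MTHFD1 (109 ± 9.63), MTHFD1L (107 ± 2.25), PSAT1 (55.4 ± 5.68), SHMT1 (48.8 ± 2.04), PSPH (19.3 ± 1.06), ALDH1L2 (8.03 ± 0.134) and MTHFD2L (3.60 ± 0.586). Only MTHFD1 and MTHFD1L, and PSAT1 and SHMT1, overlapped with their neighbour in that order. After r-CRMP2 the order was the same except that MTHFD1L (146 ± 7.44 TPM) stood above MTHFD1 (90.3 ± 2.30 TPM) without overlap. PSPH (8.24 ± 1.51 TPM) and ALDH1L2 (7.17 ± 0.651 TPM) then overlapped, as did PSAT1 and SHMT1.

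The makeup of the 10 transcripts within a library shifted to the mitochondrial arm. Of the summed TPM of the 10 genes, the 5 mitochondrial enzymes made up 57.2%, 55.4% and 53.7% in untreated and 66.2%, 67.7% and 66.7% in r-CRMP2 libraries. The 3 serine synthesis enzymes made up 30.8% ± 0.726 (SD, n = 3) and 22.8% ± 0.470, and the 2 cytosolic enzymes 13.7% ± 1.06 and 10.3% ± 0.385. The 3 shares have to sum to the whole, so they are not separate results.

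Genes on the opposite strand lie over some of these genes, and whether counting used strand is not given in the sources used here. NDUFA4L2 shares 33 bases of its span with SHMT2 and itself rose, from 4874, 4071 and 3870 counts to 9362, 10122 and 10451 counts (log2 fold change 1.54, edgeR adjusted p = 9.97e-12). SHMT2 had 10332 to 12326 and 12779 to 14743 counts. ZBTB25 spans 10902 bases of MTHFD1 and was higher (0.77, adjusted p = 2.00e-06, 534 to 989 counts), against 3254 to 4450 counts for MTHFD1. SMCR8 overlaps SHMT1 by 197 bases and was higher (0.24, adjusted p = 0.00693), but at -0.07 (adjusted p = 0.444) scaled by library size alone. SLC4A5, whose annotated transcripts share 1324 bases with MTHFD2 on the other strand, had 216 to 303 counts in both groups, against 3760 to 5255 for MTHFD2. The part of these neighbours in the counts of the 4 genes was not tested. Other copies by name (MTHFD1P1, MTHFD2P1, MTHFD2P5, PSAT1P1 and SHMT1P1) had at most 7 counts in a library. Further transcripts that share sequence are not listed by name among the 44591 genes, so their counts cannot be given. PSAT1P3 shares 1113 bases with PSAT1 at 95.2% identity, and MTHFD2P7 shares 353 bases with MTHFD2. Several share up to 505 bases with MTHFD1L, and 1 on the other strand shares 314 bases with SHMT2. Their part in the counts of these enzymes was not tested.

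The other folate enzymes and carriers, some of them mitochondrial, did not follow SHMT2, MTHFD2 and MTHFD1L. Of 12 tested, 1 was higher and 9 lower, with a median log2 fold change of -0.41 against -0.03 for all genes. Of all genes tested, 28.2% were higher and 30.1% lower. GGH, which trims the glutamate tail of folates, rose (0.46, from 27.2, 27.995 and 29.9 to 35.2, 46.2 and 36.1 CPM, adjusted p = 3.20e-04; 0.15, adjusted p = 0.169 by library size alone). SLC46A1, the proton-coupled folate transporter, fell by 1.07 on the log2 scale, from 32.5, 35.0 and 33.0 to 19.7, 14.3 and 13.8 CPM (adjusted p = 7.45e-08). For both genes the groups were separate. ALDH1L1, the cytosolic counterpart of ALDH1L2, had 2 to 5 counts a library and was not tested.

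Genes of glycine cleavage and formation showed no calls in either direction among 5 tested (median -0.02). GLDC, the decarboxylase of glycine cleavage, had at most 4 counts in any library. Of 15 genes of serine transport and use, 6 were higher and 4 lower (median 0.02), against 28.2% and 30.1% of all genes tested. SERINC3 (0.39, adjusted p = 1.18e-05) and SPTLC1, a subunit of the enzyme that joins serine to palmitoyl-CoA for sphingolipids (0.29, adjusted p = 0.00246), rose most, though SPTLC1 was at -0.02 (adjusted p = 0.850) and SERINC3 at 0.08 (adjusted p = 0.228) scaled by library size alone. SFXN2, a mitochondrial sideroflexin (-1.33, adjusted p = 1.57e-04), and SDSL, a serine dehydratase-like enzyme (-1.19, adjusted p = 6.34e-04), fell most, both from below 5 CPM.

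In the methionine cycle and transsulfuration, 3 of 7 tested genes were higher and 3 lower (median -0.01), against 28.2% and 30.1% of all genes. The higher genes included MAT2A, which makes S-adenosylmethionine (0.51, adjusted p = 1.38e-06), and AHCY, which clears S-adenosylhomocysteine (0.40, adjusted p = 1.49e-05, and 0.09, adjusted p = 0.162 by library size alone). CBS and CTH, the enzymes that use serine and homocysteine to make cysteine, were lower (-0.75, adjusted p = 4.40e-08, and -0.80, adjusted p = 5.01e-04). CBS fell from 50.9, 50.4 and 52.5 to 28.5, 31.5 and 31.3 CPM.

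De novo purine synthesis uses formyl units from this pathway. Of its 12 tested genes, 6 were higher and 3 lower (median 0.18), against 28.2% and 30.1% of all genes tested. PPAT, the amidotransferase of its committed step, rose from 19.7, 20.5 and 22.1 to 33.7, 31.5 and 31.7 CPM (log2 fold change 0.64, adjusted p = 1.49e-06), and PRPS1 by 0.46 (adjusted p = 7.20e-06, and 0.15, adjusted p = 0.0572 by library size alone). PFAS fell by 0.74 on the log2 scale (adjusted p = 5.58e-08) and GART, one of the enzymes that use the formyl unit, by 0.27 (adjusted p = 0.00114).

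Of ATF4 and 19 genes it is known to induce, without the 10 enzymes, 11 were higher and 5 lower (median 0.24). Both thresholds were passed by 4 and 2 of them. Of all genes tested, 28.2% were higher and 30.1% lower, and 5.12% and 8.86% passed both thresholds. ATF4 itself measured 326, 324 and 335 CPM untreated and 342, 362 and 326 CPM with r-CRMP2 (0.07, adjusted p = 0.379, and -0.25, adjusted p = 9.42e-04 by library size alone). PPP1R15A (2.26, adjusted p = 1.34e-11) and DDIT4 (1.82, adjusted p = 4.30e-12), stress-response genes with other inducers too, rose most. SLC7A11, the cystine transporter subunit (-1.50, adjusted p = 4.83e-10), and CHAC1, which degrades glutathione (-1.32, adjusted p = 0.00197), fell most. PSAT1, PSPH, SHMT2 and MTHFD2 are also known as ATF4 targets, and their directions differed as given above. Scaled by library size alone, the counts were 0 higher and 11 lower for the folate list, 0 and 3 for glycine, 0 and 8 for serine, 1 and 4 for methionine, 1 and 5 for purine, and 7 and 9 for the ATF4 list. Among all 16222 genes tested, 2171 were higher and 8449 lower at that scaling.

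**Figure D4:**
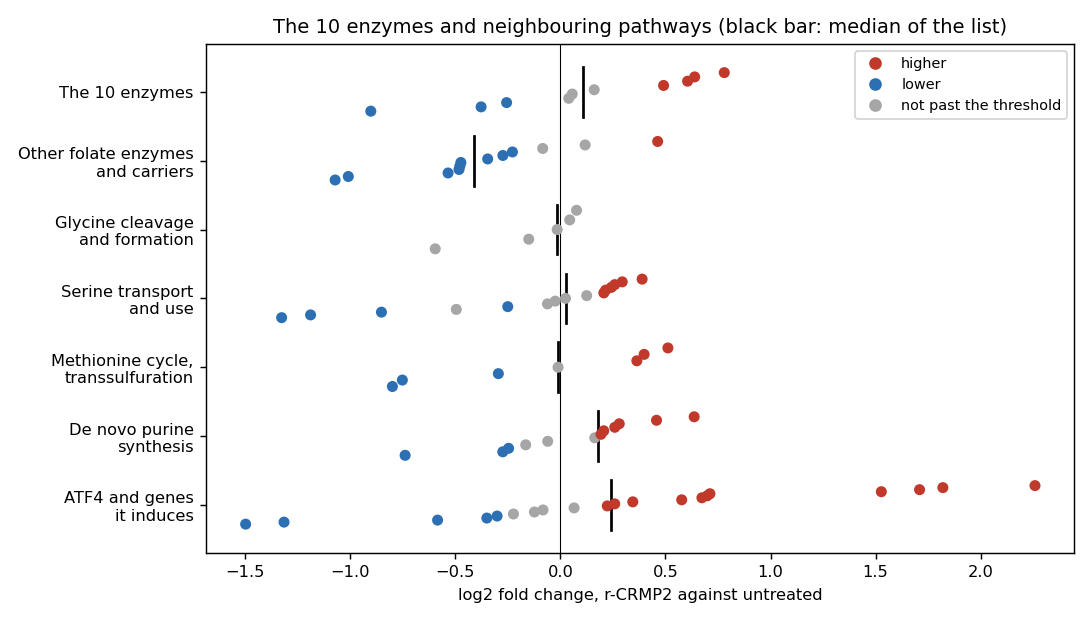
Log2 fold change (x axis, r-CRMP2 against untreated, TMM scaling) of each tested gene of the 10 enzymes and 6 neighbouring lists, coloured by call, with a black bar at each list's median. The folate list lies mostly to the left with a median of -0.41, while the other lists spread on both sides of 0.

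Markers of cell types were compared beside these results. Of the epithelial cancer markers KRT7, KRT8 and KRT18 were abundant, while WT1 had 10 or fewer counts over all libraries, and CDH1 and CLDN3 had at most 5 counts in a library. Summed over the 10 epithelial markers, levels were 3217 to 3291 normalised CPM untreated and 3233 to 3499 with r-CRMP2, which overlap, with 2 of 7 tested higher and 2 lower. Summed over the 11 fibroblast markers, levels were 613 to 686 normalised CPM and 538 to 562, with 4 of 10 tested higher and 3 lower. COL1A1 made up most of the fibroblast sum, with means of 419 CPM untreated and 316 CPM with r-CRMP2. The median log2 fold change of the 10 tested fibroblast markers was 0.19. Of all genes tested, 28.2% were higher and 30.1% lower. Summed over the 6 leukocyte markers, levels were 23.6 to 28.05 normalised CPM and 73.6 to 80.4. Most of that sum was CD68, while CD3E and LST1 had 10 or fewer counts over all libraries and PTPRC had at most 4 in a library. The part of these marker levels in the enzyme results was not tested.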

How the data were processed

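Polyadenylated RNA of 3 untreated and 3 r-CRMP2-treated A2780 libraries was sequenced. The authors deposited, per library, raw read counts and TPM on 44591 genes, with hg19 positions. The submitters' processing notes list FastQC, HISAT2, DESeq2 and hg19; the counting tool, annotation and use of strand are not given in the sources used here. The deposited TPM values equalled those recomputed from counts and lengths to within 4.72e-06.

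The deposited counts of all 6 libraries entered 1 quasi-likelihood model in edgeR 4.0.16 (R 4.3.3), after TMM scaling and filterByExpr, without covariates. P-values were adjusted by Benjamini-Hochberg over 16222 genes, and genes with an adjusted p below 0.05 were called. Standard errors were computed from log2 CPM per group (prior count 2). No pair of replicates was identical or agreed within sampling noise (chi-square per degree of freedom 3.62 to 10.3). Within-library ratios per length were tested by exact permutation. Shared sequence was searched with blastn 2.17.0 in GENCODE transcripts (GRCh38), for matches of at least 150 bases at 95% identity. The model was tested on simulated data in which few genes changed, with equal numbers of rises and falls. That setting cannot test the choice of scaling between libraries. Alternatives were RLE scaling, scaling by library totals, omitting the filter, a minimum of 10 counts in each library, DESeq2 1.42.0, a replicate block and leaving out each library. Named genes were the 10 enzymes and, per list, up to 2 with the largest rise and 2 with the largest fall among genes called, except 1 gene that is not reported here. ALDH1L1, GLDC, ATF4 and the markers and genes that overlap or share sequence with an enzyme were added for context, after their values were seen. The enzymes and lists were chosen with earlier results of these data known. Promoter sequences are from RefSeq (GRCh38.p14).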

Additional observations from a re-analysis of the deposited data

How the results depend on the processing

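Over 120 values of the 10 genes (12 alternatives each), 110 kept their direction and their side of the threshold, 5 lost the threshold, 1 passed it and 4 changed sign. The 4 were PHGDH (-0.27), MTHFD1 (-0.26) and ALDH1L2 (-0.15) scaled by library size alone, and MTHFD1 without untreated replicate 1 (-0.0050, adjusted p = 0.961). SHMT2, MTHFD2, MTHFD1L, PSAT1, PSPH and SHMT1 passed the threshold in the same direction in all 12. A threshold of 1 on the log2 fold change in addition left 0 of 7 calls. Library size alone gave 5 of the 10 genes lower and a median of -0.20. For the lists it gave 0 folate genes higher (median -0.72), 3 glycine genes lower (-0.33), 0 serine genes higher and 8 lower (-0.29), 1 methionine gene higher (-0.32), 1 purine gene higher and 5 lower (-0.13), and 7 ATF4 genes higher and 9 lower (-0.071). Over all genes it gave 2171 higher and 8449 lower, against 4574 and 4875 with TMM; why the scalings differ was not tested. Without a low-count filter the medians of the serine and methionine lists were 0.066 and 0.10, with more genes tested. Leaving out 1 library at a time moved medians between -0.42 and -0.34 for the folate list, -0.13 and 0.055 for the glycine list, -0.034 and 0.11 for the serine list and 0.14 and 0.21 for the purine list, and the count of higher folate genes between 1 and 2. The replicate numbers did not pair the libraries: the deviations of same-numbered libraries correlated at -0.02, 0.0038 and -0.03. When the replicate number entered as a block, 4 of the 10 genes were higher and 3 lower, the log2 fold change was 0.64 for SHMT2, 0.78 for MTHFD1L and -0.91 for PSPH, and 4456 genes were higher and 4774 lower; the block changed no call among the 10. With 3 libraries per group, depth limits MTHFD2L most, at 76 to 120 counts, and genes under the filter could not be compared.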
